A study of Mus musculus with 4 samples.

Results

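The 9 genes described here encode the core of beta-adrenergic and cAMP signalling: the receptors Adrb1 and Adrb3, the stimulatory G protein subunits Gnas and Gnal, the adenylyl cyclase Adcy3, the phosphodiesterase Pde3b, the protein kinase A (PKA) subunits Prkaca and Prkar2b, and the transcription factor Creb1. They were chosen by name, and all 9 had a value among the 13677 genes of the table. RNA was sequenced from the inguinal fat pad, a white depot under the skin, of mice: 2 libraries labelled FLCNKO and 2 labelled WT (wildtype). FLCNKO marks an adipose knockout of Flcn, which encodes folliculin, a tumour suppressor that acts in nutrient sensing. For the Cre driver, the deleted part of Flcn, the strain, age, sex and any treatment, no entry was found in the sources used here, and no label ties a library to 1 animal. What a p-value measures here is thus the spread between libraries, which may be technical. The series concerns the browning of white fat, in which white adipocytes take on features of heat-producing cells. Adipoq, the defining adipocyte gene, had log2 values of 17.72 and 17.85 in FLCNKO libraries and of 18.31 and 18.17 in WT libraries, so adipocyte RNA was present in all 4.

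In adipocytes, noradrenaline from sympathetic nerves binds beta-adrenergic receptors, which act through a stimulatory G protein on adenylyl cyclase to make cAMP. Cyclic AMP releases the catalytic subunits of PKA from their regulatory subunits. Free PKA phosphorylates hormone-sensitive lipase and perilipin to start lipolysis, and phosphorylates CREB to start transcription of genes such as Ppargc1a. Phosphodiesterases end the signal by breaking cAMP down, and in white fat this is a main route by which insulin opposes lipolysis.

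CREB binds the cAMP response element, written TGACGTCA, of which TGACG is the core. On the other strand the core reads CGTCA. The E-box CACGTG is bound by the MiT/TFE transcription factors, which folliculin is known to keep out of the nucleus. Stretches of promoter that hold these letters are shown because both factors stand at the ends of the pathways in question. They come from RefSeq on build GRCm38.p6, which is not the mm9 build of the expression data. Capitals mark the motif, each stretch reads 5′ to 3′ on the strand of its gene, and each ends upstream of the annotated start. Where a gene held several cores, 1 of them is shown.

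Prkaca, chr8:83972768-83972823, + strand: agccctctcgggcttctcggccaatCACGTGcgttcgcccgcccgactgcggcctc

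Prkar2b, chr12:32061327-32061382, - strand: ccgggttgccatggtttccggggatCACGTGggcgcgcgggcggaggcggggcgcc

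Prkaca, chr8:83972833-83972887, + strand: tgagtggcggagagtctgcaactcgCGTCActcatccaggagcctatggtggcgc

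Gnas, chr2:174327686-174327740, + strand: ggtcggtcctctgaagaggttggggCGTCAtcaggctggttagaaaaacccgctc

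Adrb1, chr19:56722002-56722056, + strand: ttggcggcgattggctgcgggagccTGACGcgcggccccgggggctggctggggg

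Ppargc1a, chr5:51567745-51567799, - strand: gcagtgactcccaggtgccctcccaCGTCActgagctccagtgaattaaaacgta

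Flcn, chr11:59810056-59810113, - strand: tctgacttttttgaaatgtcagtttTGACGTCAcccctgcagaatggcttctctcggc

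Windows reached from 250 bases before to 50 bases after each start and were read on both strands. They were used for 6 of the 9 genes (Adrb1, Gnas, Adcy3, Prkaca, Prkar2b and Creb1). Windows on chromosome 18, where Gnal lies, were not read for the 9 genes. The core TGACG, which every full element contains, occurred in 3 of the 6 (Adrb1, Gnas and Prkaca) and in 23% of all 27025 genes with a window. The E-box occurred in 2 of the 6 (Prkaca and Prkar2b), against 8.09% of all genes. A gene counts if any of its windows matches, and Gnas had 4 windows and Adcy3, Prkaca and Prkar2b 2 each. Only 1 of the 2 windows of Prkaca, and 1 of the 2 of Prkar2b, held the E-box, as did 7.15% of all 32851 windows. The full element occurred in 0 of the 6 and in 2.03% of all genes, and the window of Flcn held it. Of 6 other pathway and response genes that rose, named below, 5 had a window that was read. The core occurred in 1 of these 5, Ppargc1a, and the E-box and the full element in 0. These matches describe letters in a window and do not show binding.

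Of the 9 genes, 1 fell and 0 rose in the libraries labelled FLCNKO (limma on the log2 values, Benjamini-Hochberg adjusted p under 0.05 over all genes). Among all genes 1.59% were called, 0.980% higher and 0.614% lower. The gene that fell was Gnal, 5.56-fold. At an unadjusted p under 0.05, Adrb3, Adcy3 and Prkar2b were higher and Pde3b and Gnal lower. Many genes pass that cut: of all 13677, limma gave 1659 higher and 1402 lower, the background for each such count below. In 8 of the 9 the FLCNKO and WT libraries did not overlap, with 5 genes higher and 3 lower, while 54.6% of all genes did not overlap (29.2% higher and 25.4% lower). The median log2 fold change, taken throughout as the FLCNKO mean minus the WT mean, was 0.23 over the 9 genes and 0.0046 over all genes.

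**Figure D1:**
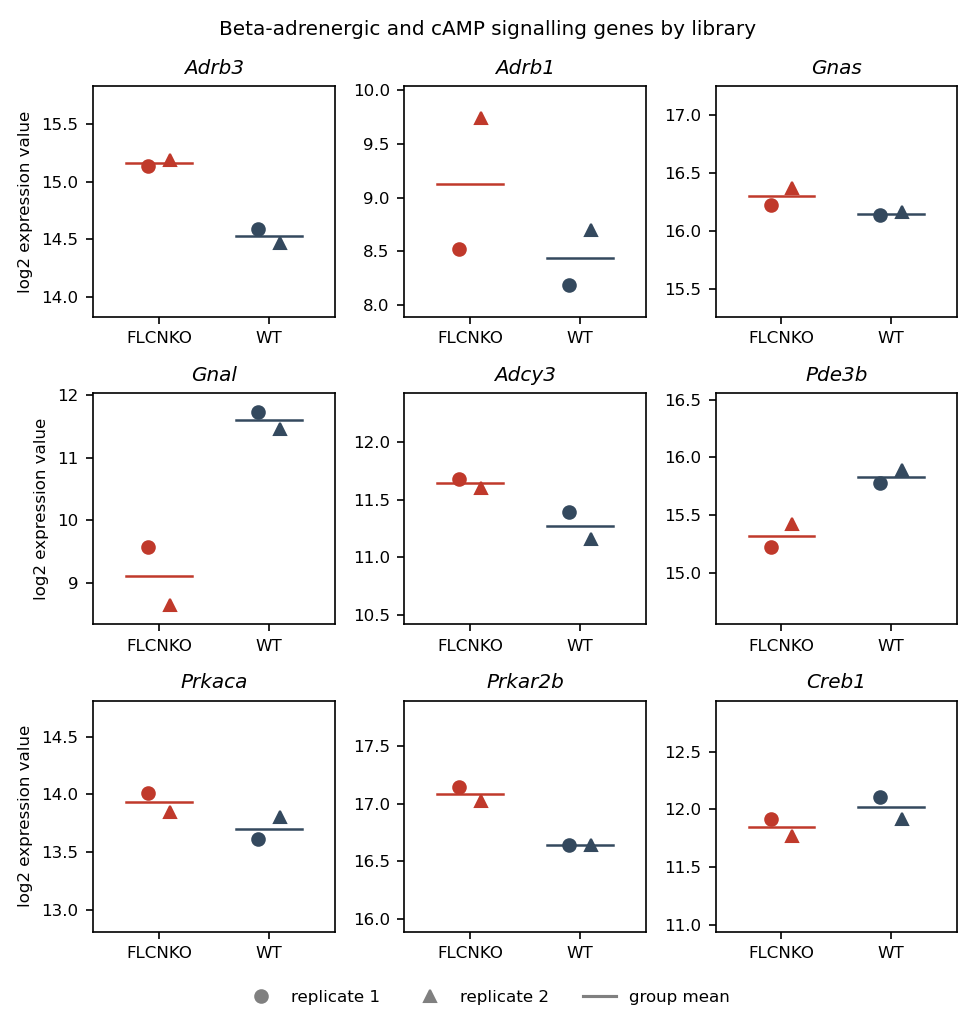
Log2 expression value of the 9 genes in the 2 FLCNKO and 2 WT libraries, with group means as lines; each panel has its own vertical range of at least 2 log2 units. Gnal at 9.57 and 8.65 in FLCNKO libraries lies far below its WT values of 11.72 and 11.45, and only Adrb1 has groups that overlap.

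Flcn itself did not separate the groups. Its log2 values were 12.35 and 12.12 in FLCNKO libraries and 12.36 and 12.21 in WT libraries. The deleted exon is unknown, and a value summed over the gene may not show its loss, so the libraries are named by their labels throughout.

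The receptors are described first. Adrb3, the beta-adrenergic receptor of rodent adipocytes that drives lipolysis and heat production, had log2 values of 15.14 and 15.19 in FLCNKO libraries and of 14.59 and 14.47 in WT libraries. Both FLCNKO values lay above both WT values, by at least 0.54. The log2 fold change was 0.63 ± 0.11 (SE, n = 2 per group), a 1.55-fold difference with a 95% interval from 0.35 to 0.91 on the log2 scale, and it did not pass over all genes (limma adjusted p = 0.064). Of the stretches of 31 bases in Adrb3 transcripts 22% also occur in other genes, foremost Gm45470, annotated on the other strand and not analysed here. When any 1 library was left out the Adrb3 difference stayed between 0.57 and 0.69.

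Adrb1, the beta receptor best known from the heart and also found on fat cells, had log2 values of 8.52 and 9.74 in FLCNKO libraries and of 8.19 and 8.70 in WT libraries. FLCNKO replicate 2 stood above the other 3 libraries, and FLCNKO replicate 1 lay between the WT libraries. The log2 fold change of 0.69 ± 0.45 (SE; limma adjusted p = 0.437) was 0.07 without FLCNKO replicate 2 and 1.30 without FLCNKO replicate 1. Its 95% interval ran from -0.47 to 1.85, the widest of the 9 genes.

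Markers of skeletal muscle differed widely between the libraries. All 12 muscle markers had a value. The log2 of their summed level was 16.24 and 13.38 in FLCNKO libraries and 17.38 and 14.33 in WT libraries, with a wide spread inside each group. Adrb1 ran in the opposite order over the 4 libraries, highest where the muscle sum was lowest, and the part of muscle RNA in its value was not tested. In bulk tissue such as this, fewer cells of a type and less RNA per cell cannot be told apart.

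To set genes beside each other, each value was taken per kilobase of merged annotated exons, a length that counts every isoform and so understates genes with many start or end sites, such as Gnas, Gnal and Creb1. On that scale the log2 level of Adrb3 was 13.38 and 13.43 in FLCNKO libraries and 12.84 and 12.72 in WT libraries. That of Adrb1 was 6.76 and 7.98 in FLCNKO libraries and 6.43 and 6.94 in WT libraries. Adrb1 thus made up at most 2.24% of the sum of the pair in any library.

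Of 4 alpha-adrenergic receptors with a value, 1 rose and 0 fell (1 lower at an unadjusted p under 0.05), with a median log2 fold change of -0.54. The riser was Adra1a, a receptor that signals through Gq and calcium and not through cAMP. Adra1a had log2 values of 12.05 and 11.82 in FLCNKO libraries and of 10.42 and 10.47 in WT libraries, a 2.8-fold rise (1.48 ± 0.13 on the log2 scale, SE; limma adjusted p = 0.0336). Its sister receptor Adra1b had 7.25 and 6.77 in FLCNKO libraries and 8.65 and 8.30 in WT libraries (-1.47 ± 0.32, adjusted p = 0.0866). The groups did not overlap in either gene, and they lay in opposite directions. Adra1d stood at -0.27 ± 0.28, with overlapping groups (adjusted p = 0.624).

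Among 13 other receptors that couple to Gs, 0 were called by limma over all genes (0 higher and 2 lower at an unadjusted p under 0.05). Those with the smallest p were Mc5r (-0.66), the thyrotropin receptor Tshr (-0.73) and the prostacyclin receptor Ptgir (0.54 on the log2 scale; adjusted p = 0.196, 0.196 and 0.281). Of 8 receptors that couple to Gi and restrain cAMP, 1 rose and 0 fell (3 lower at an unadjusted p under 0.05). Ptger3, the EP3 receptor for prostaglandin E2, had log2 values of 13.95 and 13.83 in FLCNKO libraries and of 12.19 and 12.61 in WT libraries. That is a 2.81-fold rise (1.49 ± 0.17 on the log2 scale, SE; limma adjusted p = 0.0411). The short-chain fatty acid receptor Ffar2 (-0.67) and the succinate receptor Sucnr1 (-0.74) did not pass (adjusted p = 0.0647 and 0.11).

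Gnal and Gnas encode the alpha subunits that turn adenylyl cyclase on. Gnal encodes G alpha olf, known from olfactory neurons and the striatum, where it takes the place of G alpha s. Gnal had log2 values of 9.57 and 8.65 in FLCNKO libraries and of 11.72 and 11.45 in WT libraries, means of 9.11 ± 0.65 and 11.59 ± 0.19 (SD, n = 2). Both FLCNKO libraries lay at least 1.88 below both WT libraries, and FLCNKO replicate 2 was the lower of the pair. The log2 fold change was -2.47 ± 0.33 (SE), with a 95% interval from -3.31 to -1.64 and a limma adjusted p of 0.0476. The size of its difference exceeded that of 99% of all genes.

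That call lies close to the threshold and rests on all 4 libraries. The Gnal difference was -2.94 without FLCNKO replicate 1, -2.01 without FLCNKO replicate 2, -2.34 without WT replicate 1 and -2.61 without WT replicate 2, with limma adjusted p-values of 0.103, 0.0631, 0.276 and 0.246. In each of these fits 0 genes of the whole transcriptome were called, so every call given here needs all 4 libraries. Without a mean-variance trend in the fit the adjusted p of Gnal was 0.144, and again 0 genes were called. Of the stretches of 31 bases in Gnal transcripts, 8.02% also occur in other genes, foremost Mppe1, which overlaps Gnal on the other strand. Mppe1 had log2 values of 9.98 and 9.95 in FLCNKO libraries and of 9.73 and 9.54 in WT libraries, the opposite direction (adjusted p = 0.279). Chmp1b, which overlaps Gnal on the same strand, was not analysed here, and whether the counting used strand is not given in the sources used here.

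Gnas, which encodes G alpha s, had log2 values of 16.22 and 16.37 in FLCNKO libraries and of 16.14 and 16.16 in WT libraries. The groups were parted by 0.06 only. The difference was 0.14 ± 0.12 (SE) on the log2 scale, with a 95% interval from -0.17 to 0.46 (limma adjusted p = 0.552). Gnas is an imprinted locus with several start sites, which a gene-level value merges, and 19.9% of its stretches of 31 bases also occur in other genes, foremost Gm20721 and the antisense gene Nespas on the other strand. Per kilobase of merged exons, Gnal made up 0.988% and 0.473% of the sum of Gnas and Gnal in FLCNKO libraries and 4.46% and 3.69% in WT libraries. Gnas therefore held nearly the whole of the stimulatory alpha subunit transcripts in every library, and the log2 of the sum of the pair was 12.75 and 12.89 in FLCNKO libraries and 12.73 in each WT library.

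Markers of some other cell types, like Gnal, lay lower in FLCNKO than in WT libraries. All 10 fibroblast and matrix markers and all 10 macrophage markers were lower without overlap in FLCNKO libraries, of which 3 and 2 fell (limma, adjusted p under 0.05). The log2 of the summed fibroblast level was 19.22 and 19.15 in FLCNKO libraries and 20.27 and 20.13 in WT libraries, and that of the macrophage markers 17.03 and 16.76 in FLCNKO libraries and 17.88 and 17.66 in WT libraries. Of 10 epithelial markers 4 had a value, with a log2 of the sum of 9.12 and 9.35 in FLCNKO libraries and 10.48 and 11.33 in WT libraries. Among these Trp63, a transcription factor of basal epithelium, fell (8.13 and 7.88 in FLCNKO libraries, 10.07 and 10.98 in WT libraries). Trp63 made up most of the epithelial sum in WT libraries. The median of the 4 epithelial markers overlapped, at 6.81 and 7.49 in FLCNKO libraries and 7.17 and 7.61 in WT libraries. The keratin genes Krt8 and Krt18 had log2 fold changes of -0.01 and -0.46 and were not called, and Krt5, Krt14 and Epcam were not analysed here. The part of fibroblasts, macrophages or epithelial cells in the Gnal value was not tested. Of 8 endothelial markers 0 were called (1 lower at an unadjusted p under 0.05). Of 7 Schwann cell markers, which stand for the nerves that bring noradrenaline, S100b rose (11.88 and 12.01 in FLCNKO libraries, 9.03 and 8.72 in WT libraries). The log2 of their summed level overlapped, at 13.76 and 13.54 in FLCNKO libraries and 13.42 and 13.73 in WT libraries.

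**Figure D2:**
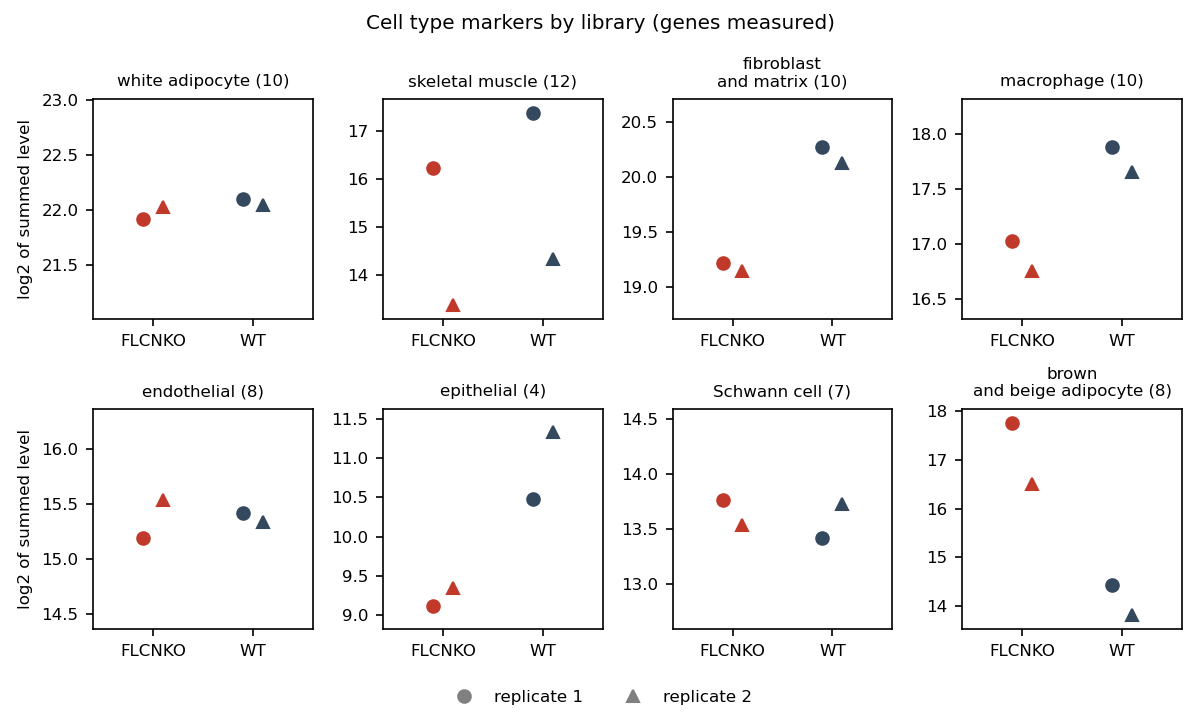
Log2 of the summed level of 8 lists of cell type markers in the 2 FLCNKO and 2 WT libraries, with the number of measured genes in brackets; each panel has its own vertical range. Fibroblast and macrophage sums are lower and brown and beige sums higher in FLCNKO libraries, while muscle sums spread from 13.38 to 17.38 within and across the groups. Epithelial sums are lower too, but rest largely on Trp63 in WT libraries.

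The 3 genes closest to Gnal over the 4 libraries, by Euclidean distance after each gene's own mean was subtracted, were Lrtm1 (distance 0.387), the matrix protease gene Adamts15 (0.643) and H2-Eb2 (0.66). Lrtm1 had log2 values of 6.69 and 6.13 in FLCNKO libraries and of 8.76 and 8.90 in WT libraries. Adamts15 had 10.02 and 9.82 in FLCNKO libraries and 12.34 and 12.60 in WT libraries. Both fell (limma adjusted p = 0.0478 and 0.0336), while H2-Eb2 did not pass (adjusted p = 0.212). With 4 libraries this likeness describes a large common difference and little else.

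Of 18 other G protein subunits and chaperones, 1 rose and 0 fell (1 higher and 4 lower at an unadjusted p under 0.05), with a median log2 fold change of -0.16. Gnao1, which encodes G alpha o, an inhibitory-class subunit abundant in neurons and endocrine cells, had log2 values of 10.13 and 10.06 in FLCNKO libraries and of 8.73 and 8.58 in WT libraries. This 2.71-fold rise (1.44 ± 0.16 on the log2 scale, SE; limma adjusted p = 0.0412) left it a small part of its class. Per kilobase, Gnao1 was 1.03% and 0.768% of the sum of Gnai1, Gnai2, Gnai3 and Gnao1 in FLCNKO libraries and 0.261% and 0.238% in WT libraries. Gng2 (-0.63) and Gnb5 (-0.51) had the next smallest p and did not pass (adjusted p = 0.131 and 0.168).

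Adcy3 encodes an adenylyl cyclase of olfactory cilia that is also made in fat, and mice without it become obese. Its log2 values were 11.68 and 11.60 in FLCNKO libraries and 11.39 and 11.16 in WT libraries, so that the groups were parted by 0.22. The log2 fold change of 0.37 ± 0.13 (SE; 95% interval from 0.03 to 0.71) did not pass over all genes (limma adjusted p = 0.193). In addition 20.1% of the stretches of 31 bases in Adcy3 transcripts occur in other genes, foremost Cenpo, which overlaps it on the other strand and had a log2 fold change of 0.19 ± 0.17.

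None of the 8 other adenylyl cyclases was called by limma (2 higher and 1 lower at an unadjusted p under 0.05), and their median log2 fold change was -0.31. Adcy10, the soluble cyclase that responds to bicarbonate, had the largest difference, with log2 values of 9.42 and 8.28 in FLCNKO libraries and 7.01 and 7.30 in WT libraries (1.70 ± 0.44, SE; adjusted p = 0.111). Adcy9 was at 0.52 ± 0.14 and Adcy7 at -0.68 ± 0.16 (adjusted p = 0.116 and 0.0955). Per kilobase of merged exons the class was led by Adcy6, with 44.5% and 46% of the sum in FLCNKO libraries and 38.8% and 38.9% in WT libraries. Adcy5 followed with 23.9% and 30.8% in FLCNKO libraries and 35.5% and 36% in WT libraries. Adcy3 made up 10.7% and 8.04% in FLCNKO libraries and 6.61% and 6.41% in WT libraries.

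Pde3b encodes the phosphodiesterase through which insulin lowers cAMP in adipocytes. Its log2 values were 15.22 and 15.42 in FLCNKO libraries and 15.78 and 15.89 in WT libraries, with both FLCNKO values at least 0.36 below both WT values. The log2 fold change was -0.52 ± 0.13 (SE; 95% interval from -0.85 to -0.18), a 1.43-fold difference that did not pass over all genes (limma adjusted p = 0.107). Its close relative Pde3a, better known from heart and vessels, stood at 7.25 and 7.29 in FLCNKO libraries and at 7.11 and 7.24 in WT libraries (0.09 ± 0.32, adjusted p = 0.892).

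Of 13 other phosphodiesterases that act on cAMP, 1 rose and 0 fell (2 higher and 0 lower at an unadjusted p under 0.05). Pde4d, a cAMP-specific enzyme of the rolipram-sensitive family, had log2 values of 11.84 and 11.66 in FLCNKO libraries and of 10.56 and 10.65 in WT libraries. Its rise was 2.21-fold (1.14 ± 0.13 on the log2 scale, SE; limma adjusted p = 0.0404). Pde1b and Pde11a were at 0.51 ± 0.14 and -0.41 ± 0.17 (adjusted p = 0.119 and 0.25). Per kilobase, Pde3b made up 53.9% and 57% of the summed phosphodiesterase level in FLCNKO libraries and 64% and 64.8% in WT libraries. Pde4d made up 3.94% and 3.2% in FLCNKO libraries and 1.31% and 1.3% in WT libraries, so Pde3b remained the leading transcript of the class in each of the 4 libraries.

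Prkar2b encodes RII beta, the regulatory subunit of PKA that predominates in mouse adipose tissue. Its log2 values were 17.14 and 17.02 in FLCNKO libraries and 16.64 in each WT library, equal to the digits printed here. The 4 libraries had nearly the same distribution of values, so that close ranks yield close values, and such a tie does not measure the WT spread. The log2 fold change of 0.43 ± 0.13 (SE; 95% interval from 0.10 to 0.77) did not pass over all genes (limma adjusted p = 0.146). Of the other regulatory subunits, Prkar1a was at -0.01 ± 0.12, Prkar2a at 0.09 ± 0.13 and the scarce Prkar1b at 0.57 ± 0.35 (adjusted p = 0.965, 0.717 and 0.408). Per kilobase of merged exons, Prkar2b made up 88.9% and 88% of the 4 regulatory subunits in FLCNKO libraries and 84.3% and 85.8% in WT libraries.

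Prkaca, the main catalytic subunit, had log2 values of 14.01 and 13.85 in FLCNKO libraries and of 13.61 and 13.80 in WT libraries. FLCNKO replicate 2 and WT replicate 2 differed by only 0.06, and the groups differed by 0.23 ± 0.12 (SE) on the log2 scale, with a 95% interval from -0.09 to 0.54 (limma adjusted p = 0.354). Prkacb, which encodes the other catalytic subunit, had log2 values of 12.72 and 12.66 in FLCNKO libraries and of 12.67 and 12.70 in WT libraries (0.01 ± 0.10, adjusted p = 0.979). The 95% interval of Prkacb ran from -0.25 to 0.27. Prkaca made up between 87.1% and 89.6% of the pair per kilobase in the 4 libraries. A promoter stretch of Prkaca, shown above, holds the E-box, as does that of Prkar2b, and any role of the motif was not tested.

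Among 7 other PKA subunits and inhibitors 0 were called by limma (0 higher and 1 lower at an unadjusted p under 0.05). The lower one, Pkig, encodes an inhibitor peptide of PKA. Its log2 values were 9.99 and 10 in FLCNKO libraries and 10.81 and 10.79 in WT libraries (-0.80 ± 0.12, SE; adjusted p = 0.0549), and it passed when genes with a mean under 8 were left out or with robust moderation of the variances (adjusted p = 0.048 and 0.0489). The inhibitor gene Pkia was at -0.25 ± 0.16. Of 13 anchoring proteins and Epac genes 1 rose and 0 fell (2 higher and 2 lower at an unadjusted p under 0.05). Akap1, which tethers PKA to the outer membrane of mitochondria, had log2 values of 13.49 and 13.25 in FLCNKO libraries and of 12.40 and 12.37 in WT libraries, a 1.98-fold rise (0.99 ± 0.12 on the log2 scale, SE; adjusted p = 0.0444). Akap8l (-0.42) and Akap13 (-0.32) did not pass (adjusted p = 0.134 and 0.158).

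**Figure D3:**
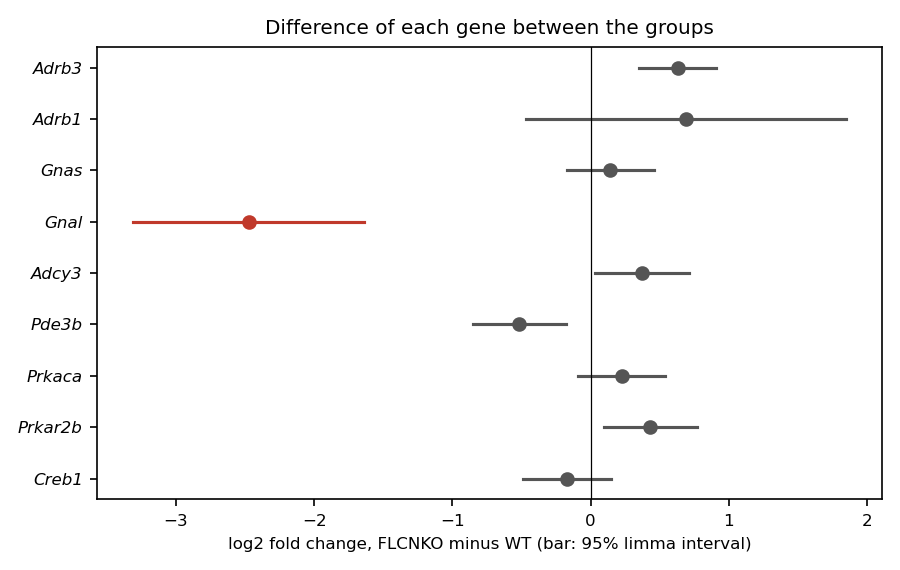
Log2 fold change (FLCNKO minus WT) of the 9 genes with the 95% interval of the limma fit, n = 2 libraries per group; the gene called at an adjusted p under 0.05 is red. The interval of Gnal, from -3.31 to -1.64, is the only 1 that lies wholly below -1.

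Creb1, the transcription factor that PKA phosphorylates, had log2 values of 11.92 and 11.77 in FLCNKO libraries and of 12.11 and 11.92 in WT libraries. The groups were parted by 0.01 only, with a difference of -0.17 ± 0.13 (SE) and a 95% interval from -0.49 to 0.15 (limma adjusted p = 0.492). Its relatives Atf1 (0.15 ± 0.12) and Crem (0.13 ± 0.18) did not pass either (adjusted p = 0.523 and 0.708). Of the 11 genes of the CREB family, its coactivators and the SIK kinases that restrain those coactivators, limma called 0 (0 higher and 1 lower at an unadjusted p under 0.05), and log2 fold changes ran from -0.30 to 0.18. Sik3 had the smallest p (-0.30 ± 0.11, adjusted p = 0.195), followed by the acetyltransferase genes Crebbp and Ep300 (-0.30 and -0.25). Activity of CREB is set by phosphorylation, which these data do not measure.

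Of 7 genes of receptor desensitisation, limma called 0 (0 higher and 4 lower at an unadjusted p under 0.05). The kinase gene Grk6 was at -0.56 ± 0.11, and Arrb2 and Arrb1, which encode the arrestins that uncouple receptors from G proteins, at -0.45 ± 0.11 and -0.40 ± 0.10 (SE; adjusted p = 0.0762, 0.103 and 0.116). Catecholamine handling was represented by 5 genes with a value, of which limma called 0 (2 higher and 0 lower at an unadjusted p under 0.05). Maoa, which deaminates catecholamines, had 12.73 and 13.55 in FLCNKO libraries and 11.41 and 11.50 in WT libraries, and did not pass (1.68 ± 0.28, adjusted p = 0.0599), although it did with robust moderation of the variances (adjusted p = 0.0489). Slc22a3, a transporter that takes catecholamines up, was at 0.30 ± 0.11 (adjusted p = 0.199). Slc6a2, the noradrenaline transporter gene of sympathetic nerves, had low values of 7.10 and 6.59 in FLCNKO libraries and 5.82 and 4.46 in WT libraries (1.71 ± 0.71, adjusted p = 0.243).

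**Figure D4:**
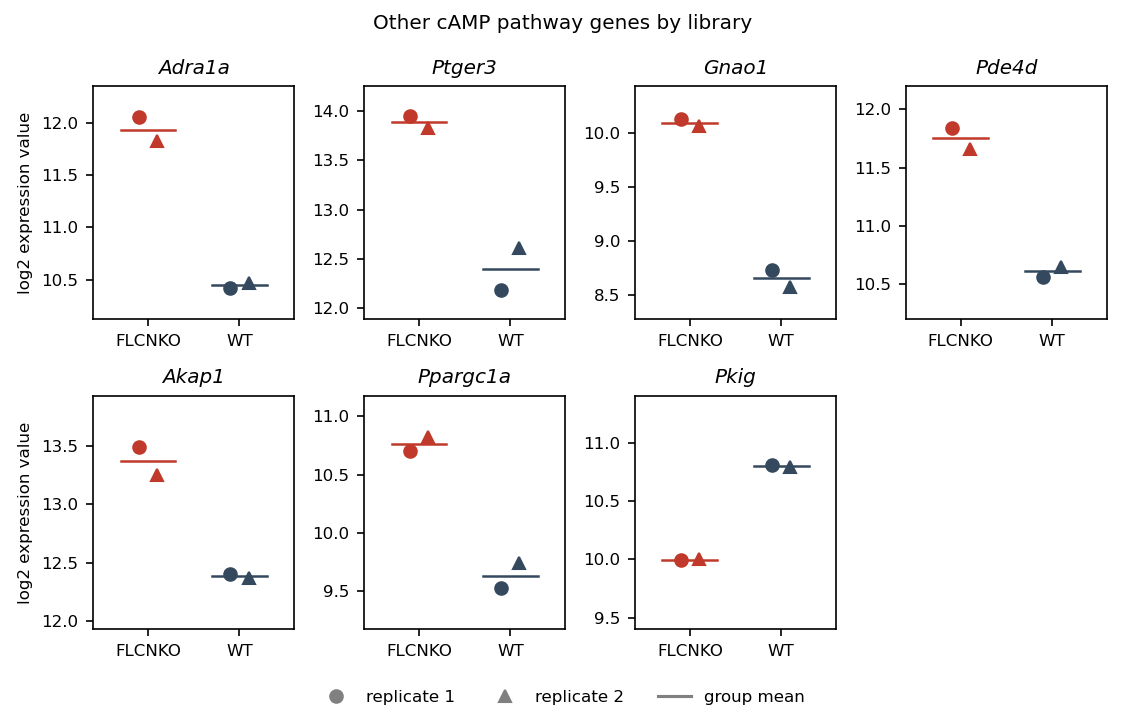
Log2 expression value of the 6 further pathway and response genes that rose, and of Pkig, in the 2 FLCNKO and 2 WT libraries, with group means as lines; each panel has its own vertical range. The groups do not overlap in any of the 7 genes, and Pkig, which did not pass, is the 1 that lies lower in FLCNKO libraries.

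Over the 11 lists of other pathway genes, 5 of 107 measured genes rose and 0 fell, and the median log2 fold change was -0.06. The 5 were Adra1a, Ptger3, Gnao1, Pde4d and Akap1, or 4.67% of the genes measured, where 0.980% of all genes rose. At an unadjusted p under 0.05, 11 of the 107 were higher and 19 lower, against 1659 higher and 1402 lower of all 13677 genes. When 1 library was left out, adjusted p-values lay between 0.0615 and 0.246 for Adra1a, 0.0877 and 0.246 for Ptger3, 0.0772 and 0.258 for Gnao1, 0.0631 and 0.289 for Pde4d, and 0.0615 and 0.318 for Akap1. The sum of the 8 brown and beige adipocyte markers lay higher in FLCNKO than in WT libraries, as did these 5 genes and Adrb3. All 8 had a positive log2 fold change, 3 rose, and the log2 of their summed level was 17.74 and 16.50 in FLCNKO libraries and 14.44 and 13.83 in WT libraries. The part of such cells in the rises was not tested. Of 10 white adipocyte markers limma called 0 (0 higher and 3 lower at an unadjusted p under 0.05, namely Adipoq, Cfd and Retn). The log2 of their summed level was 21.92 and 22.03 in FLCNKO libraries and 22.10 and 22.05 in WT libraries, slightly lower in FLCNKO libraries without overlap.

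**Figure D5:**
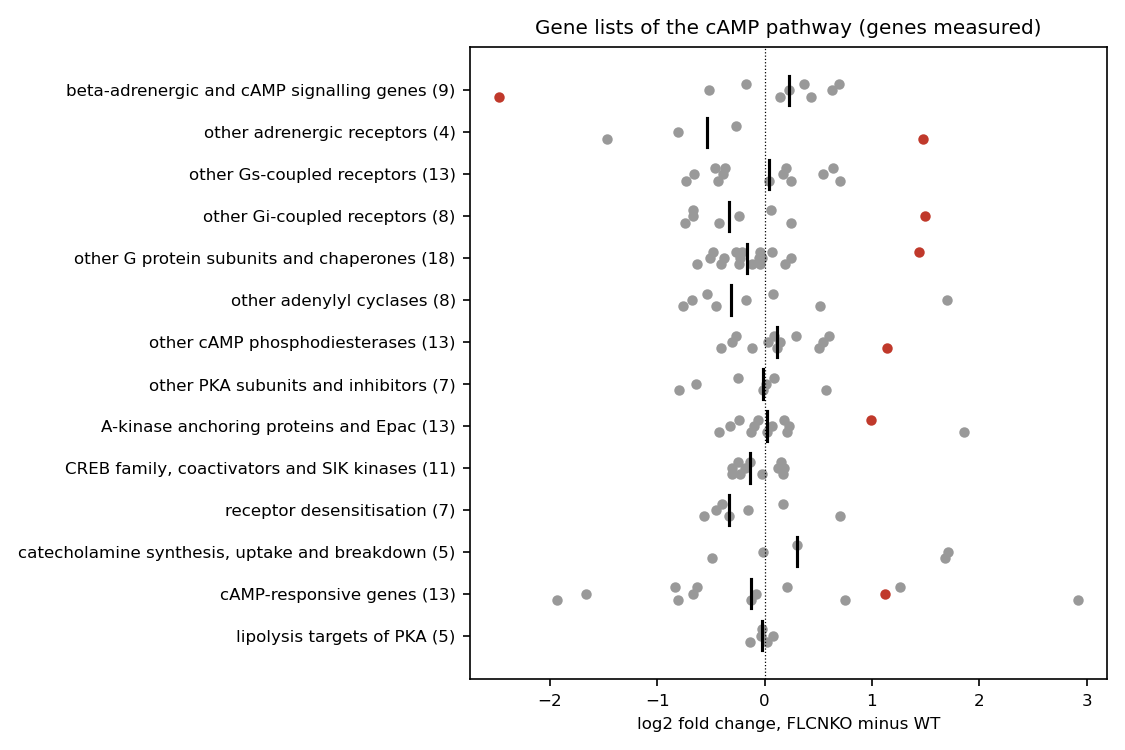
Log2 fold change (FLCNKO minus WT) of each measured gene of the 9 core genes and of 13 further lists, with list medians as black bars, the median of all genes as a dotted line and called genes in red. Each list with a called gene has exactly 1, which is Gnal for the core genes and lies to the right of 0 for the others.

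Downstream of PKA, 1 of 13 cAMP-responsive genes rose and 0 fell (1 higher and 4 lower at an unadjusted p under 0.05), with a median log2 fold change of -0.13. The riser was the coactivator gene Ppargc1a. Its promoter stretch with a TGACG core, found in 1 of 5 risers with a window, is shown above, and any role was not tested. Its log2 values were 10.70 and 10.82 in FLCNKO libraries and 9.53 and 9.74 in WT libraries (1.12 ± 0.15, SE; limma adjusted p = 0.0476, and between 0.0927 and 0.336 when 1 library was left out). Over the list 5 differences were positive and 8 negative. Fos and Per1, both induced early after cAMP, came next by p and lay lower without passing. Fos had 6.52 and 7.01 in FLCNKO libraries and 8.24 and 8.61 in WT libraries (-1.66 ± 0.33, adjusted p = 0.0758), and Per1 had 12.86 and 13.13 in FLCNKO libraries and 13.60 and 13.65 in WT libraries (-0.63 ± 0.13, adjusted p = 0.0816). The other early targets of the list, named here after their values were seen, lay on both sides of 0 and did not pass. Nr4a3 was at 1.26 ± 0.55 and Nr4a2 at 0.75 ± 0.32, while Gem was at -0.67 ± 0.19, Junb at -0.83 ± 0.31, Fosb at -1.93 ± 1.27 and Nr4a1 at -0.13 ± 0.47 (limma adjusted p from 0.13 to 0.901). Ucp1, which cAMP induces in brown and beige fat, had overlapping groups (13.79 and 10.06 in FLCNKO libraries, 10.59 and 7.42 in WT libraries). Its difference of 2.92 ± 1.54 on the log2 scale did not pass (SE; limma adjusted p = 0.336) and lay between 1.05 and 4.78 when 1 library was left out. Of 5 genes of lipolysis (Lipe, Plin1, Pnpla2, Abhd5 and G0s2), limma called 0 (0 at an unadjusted p under 0.05). All 5 had overlapping groups, with log2 fold changes from -0.14 to 0.08. Pnpla2, the adipose triglyceride lipase gene, stood at -0.03 ± 0.17, Plin1 at -0.14 ± 0.21 and Abhd5 at 0.08 ± 0.12, with 95% intervals from -0.47 to 0.40, from -0.67 to 0.40 and from -0.23 to 0.38.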

How the data were processed

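Per the file headers and values, the authors deposited log2 expression values, 1 file for each library, covering the same 13677 Ensembl gene identifiers. The submitters' processing notes name STAR, limma and the build mm9 but no versions; for the annotation and the strand setting nothing was found in the sources used here. The 4 libraries had nearly equal distributions of these log2 values, each with a median of 10.76 and a maximum of 21.66, which hides any change that most genes share. Read depth is unknown, so counting error is not given. Gene symbols were found for 13592 of the genes in the name table.

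Groups were taken from the titles and compared with limma 3.58.1 in R 4.3.3, with group as the only term, a mean-variance trend, two-sided tests and Benjamini-Hochberg adjustment over all genes (2 residual and 3.09 prior degrees of freedom). The script was tested on simulated data. No value was filtered. Levels per kilobase used merged exon lengths from GENCODE M21. The 9 genes, the gene lists and the alternatives were chosen with earlier results of these data known. Named were the 9 genes, Flcn, every called gene and the up to 3 genes with the smallest p of each list, close relatives, defining markers and, for called genes among the 9, the 3 nearest genes; a few named by this rule are left out of the text. Some genes that the lists would otherwise hold are not reported here and enter none of the list counts. Alternatives were a filter on a mean of 8, quantile normalization once more, median centring, other variance moderation, a replicate block and leaving out each library.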

Additional observations from a re-analysis of the deposited data

How the results depend on the processing

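Directions of all 9 genes held under the 10 alternatives, but only leaving out a library put them to a test. Adrb1 then lay between 0.07 and 1.30. The other alternatives left the log2 fold changes of the 9 as printed, since they alter the variance, the filter or an already equal scale. Quantile normalization once more and median centring each gave 1 of the 9 lower and 6 other pathway and response genes higher. With no mean-variance trend limma gave 0 genes higher and 0 lower (1508 and 1194 at an unadjusted p under 0.05), hence 0 of the 9 lower and 0 other pathway or response genes higher (2 and 13 at an unadjusted p). Leaving out any 1 library likewise gave from 0 to 0 calls in each of these counts, with unadjusted counts over all genes from 756 to 1733 higher and from 639 to 1722 lower, and from 1 to 2 of the 9 lower; the lone library of a group is then assumed to vary like the others, and 1 residual degree of freedom remains. A mean of at least 8 gave 138 genes lower and robust moderation 143, against 84, and each called 1 other pathway or response gene lower, Pkig; robust moderation gave 7 such genes higher, against 6, with Maoa added (adjusted p = 0.0489). The replicate numbers share only a number. Deviations of same-numbered libraries correlated at 0.363 over genes, and the replicate block gave 401 genes higher, 441 lower and 5 other pathway or response genes lower (Adra1b, Ffar2, Adcy7, Pkig and Fos), with Gnal called among the 9. It also gave 8 such genes higher, with Ucp1 (2.92 ± 0.18, limma adjusted p = 0.0145) and Maoa (adjusted p = 0.0275) added. Signs turned when 1 library was left out for Flcn (from -0.17 to 0.06), Abhd5 (-0.02 to 0.17), Plin1 (-0.41 to 0.13), Pnpla2 (-0.17 to 0.11), Prkacb (-0.02 to 0.04), Prkar1a (-0.10 to 0.08), Prkar2a (-0.02 to 0.21), Crem (-0.02 to 0.28), Adra1d (-0.57 to 0.02), Acta1 (-1.19 to 1.10), Ckm (-8.32 to 0.35) and Pecam1 (-0.26 to 0.14). The cause of these changes was not tested.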
